A study of Mus musculus with 2 samples.

Results

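The genes described here code for lysosomal hydrolases, lysosomal membrane proteins and the proton pump of the lysosome in mouse liver cells. They are 38 of the 26078 genes in the count matrices, chosen by gene symbol, and all 38 symbols were found. By role, 9 code for proteases, 5 for lipid or sugar hydrolases and an activator of them, 6 for membrane and cholesterol proteins, 2 for a regulator and a growth factor, and 16 for subunits of the vacuolar ATPase (V-ATPase).

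Lysosomes are acidic organelles in which macrophages digest what they engulf. The V-ATPase pumps protons across the lysosomal membrane: its V1 sector in the cytosol splits ATP, and its V0 sector in the membrane carries the protons. The acid activates cathepsins and other hydrolases, and Kupffer cells, macrophages that reside in liver sinusoids, use this system to digest aged and antibody-coated red cells. TFEB and its relatives are transcription factors that switch on many lysosomal genes in mammalian cells.

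By its title, the study concerns how red cell uptake reprograms Kupffer cells. The treated group was 1 C57BL/6J mouse given Ter119, an antibody to a protein on the red cell surface, under the skin: 35 ug once, followed by 10 ug on each of 10 days. The control group was 1 C57BL/6J mouse given saline in a similar volume. Both mice were 7 to 10 weeks old and carried no stated transgene. The labels place liver collection at 24 after the final injection and leave out the unit of time. Non-parenchymal liver cells were enriched with magnetic beads against F4/80 and CD11b, marked with hashtag antibodies, pooled and run as droplet-based 3' single-cell RNA-seq. With 1 mouse and 1 library per group, the effects of treatment, mouse and library preparation cannot be told apart, and no test was possible. All intervals below are exact 95% intervals that cover counting error only, and a gene was called when it was at least 2-fold apart with at least 20 CPM (UMI counts scaled to a common library total) in 1 library.

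The Ter119 library held 61892074 unique molecular identifiers (UMIs, 1 per captured transcript) and 13846 barcodes that passed the filters, with a median of 2803 UMIs. The saline library held 97181787 UMIs and 11572 such barcodes, with a median of 6239. Between the libraries, 133 barcode sequences were shared, and leaving them out moved no count of called members. A gate on marker genes, none of them among the 38, placed 6416 Ter119 barcodes (23368074 UMIs) and 8342 saline barcodes (67572109 UMIs) in the Kupffer class. All 11 Kupffer markers reached 20 CPM in the gate in both libraries, with summed levels of 23787 CPM in Ter119 and 35550 CPM in saline. Red cell transcripts also differed between the mice, at a summed 25385 CPM of 9 erythroid markers in Ter119 Kupffer-gated cells and 117 CPM in saline ones. Other Ter119 cells held them too, with 11548 CPM in the endothelial and 13131 CPM in the neutrophil gate. Limited to Kupffer-gated cells with at most 1% hemoglobin UMIs, 3787 in Ter119 and 8333 in saline, the comparison gave the same number of called members.

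In Kupffer-gated cells the lysosomal genes did not move as one group. At 20 CPM or more in 1 library, 36 of the 38 were compared, and 4 had levels at least 2-fold higher in the Ter119 mouse: the V-ATPase genes Atp6v0d2 and Atp6v0a1, the protease gene Ctsd and the activator gene Psap. None was at least 2-fold lower. Among all 6435 genes compared in this gate, 3.79% passed this rule on the high side and 8.67% on the low side. The median log2 ratio (Ter119 over saline) was 0.11 over the 36 lysosomal genes and -0.22 over all 6435. The counting interval of the ratio lay above 1 for 18 of the 36 genes and below 1 for 14, against 27.5% above and 59.3% below among all genes compared. Scaling by trimmed mean of M values (TMM) or by the median of ratios moved this to 28 above and 8 below, against 43.9% above and 39.8% below among all genes under TMM. Ctsa, Hexa, Lamp1, Atp6v0b, Atp6v1b2 and Atp6ap1 turned from below to above 1 there. When both libraries were clustered together, 12 of 13 Kupffer clusters, with 15101 of 15204 cells, were at least 99% from 1 library, so the class compared is held by different clusters in Ter119 and in saline.

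**Figure D1:**
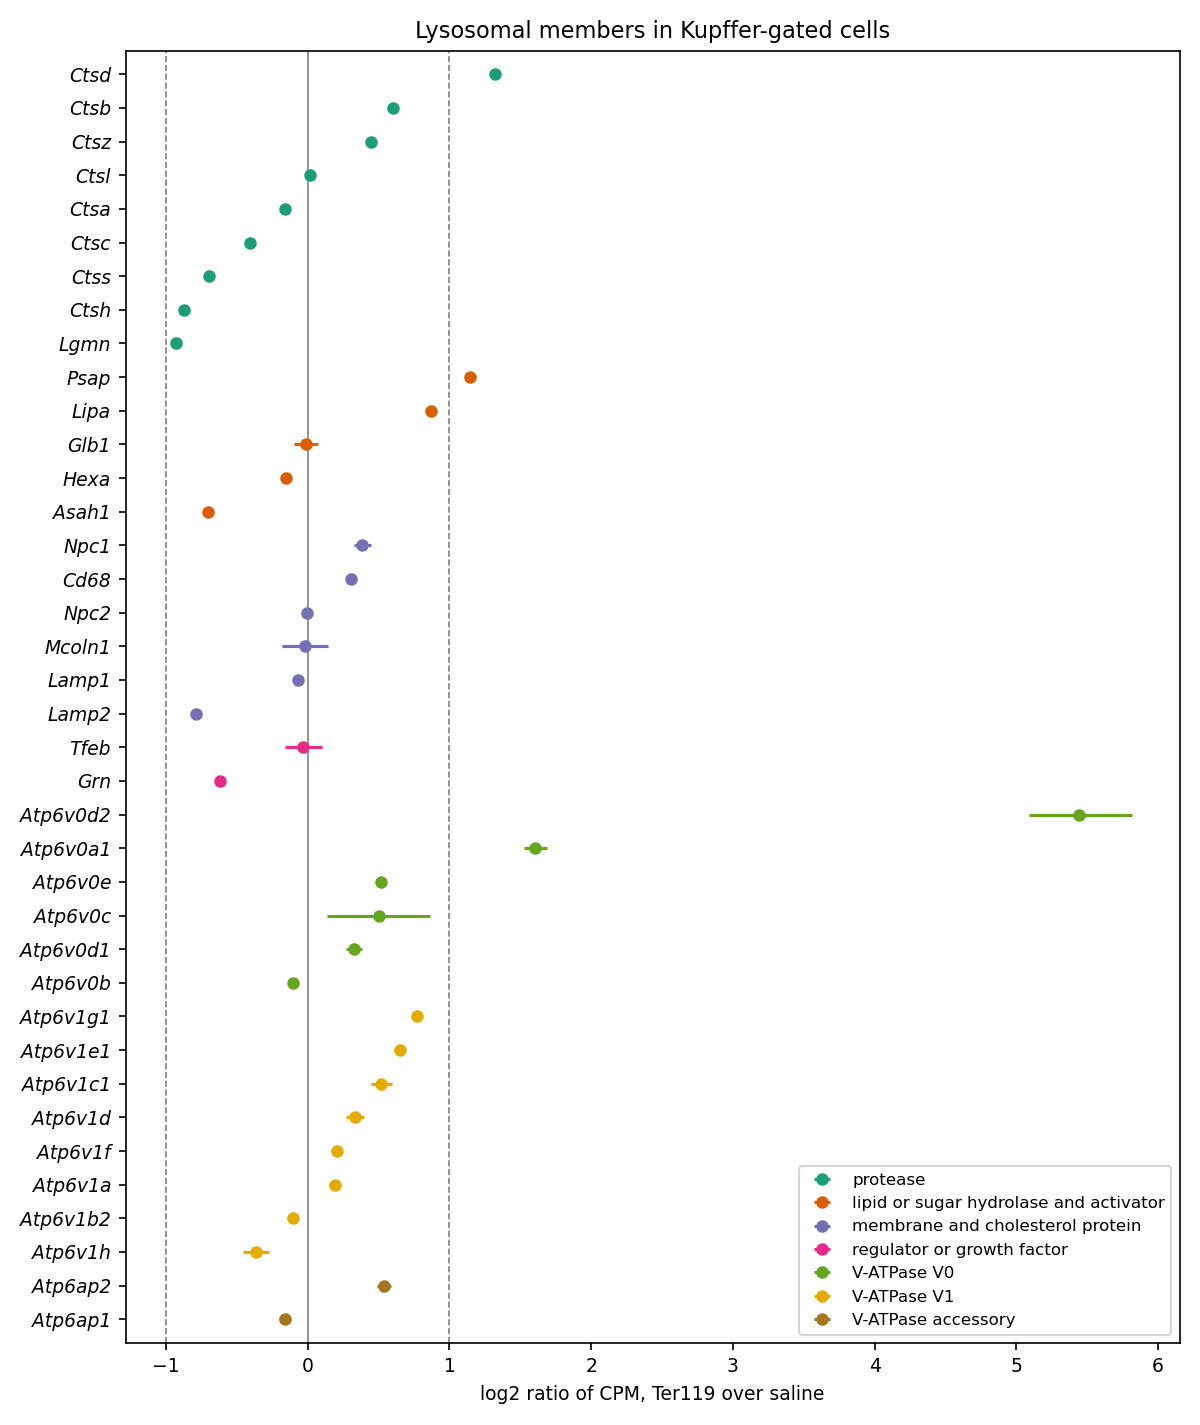
The log2 ratio of CPM, Ter119 over saline, is plotted for each of the 38 genes in Kupffer-gated cells, in colours by role, with bars for the 95% counting interval and dashed lines at 2-fold. Atp6v0d2 stands far to the right at 5.44, and 3 other genes lie beyond the right dashed line.

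Among the proteases, Ctsd had 4429 CPM in Ter119 and 1772 CPM in saline Kupffer-gated cells, a ratio of 2.50 (2.48 to 2.52). Its product, cathepsin D, is an aspartic protease. The gene lies at chr7:142375911-142388038 on the minus strand (GRCm38, GENCODE vM21). A second annotated gene, Gm49369, overlaps it on the same strand, so reads there could be shared. Such overlaps are also annotated for Atp6v0a1 (Mir6928), Ctsl (Gm49230), Ctss (Hmgb1-ps5) and Atp6v1e1 (Gm25193), and for Glb1 as given below. With every cell thinned to 1000 UMIs, a Ctsd UMI was found in 96.9% of Ter119 and 78.8% of saline cells, and unthinned in 99.2% of Ter119 and 97.4% of saline cells. In lymphoid-gated cells the thinned shares were 64.9% in Ter119 and 22.8% in saline.

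Ctsb, for the cysteine protease cathepsin B, was the most abundant of the 38 in both libraries, at 10241 CPM in Ter119 and 6748 CPM in saline (ratio 1.52, 1.51 to 1.53). Ctsz, for the carboxypeptidase cathepsin Z, had 822 CPM in Ter119 and 604 CPM in saline (1.36), and Ctsl, for cathepsin L, had 359 CPM in Ter119 and 355 CPM in saline (1.01, 0.987 to 1.04). The other 5 of the 9 proteases had ratios and counting intervals below 1, and 59.3% of all 6435 genes compared had such intervals. Lgmn, for legumain, the asparaginyl endopeptidase that processes cathepsins, had 1896 CPM in Ter119 and 3620 CPM in saline (0.524, 0.518 to 0.529), just short of the 2-fold rule. Ctsh, for the aminopeptidase cathepsin H, had 482 CPM in Ter119 and 881 CPM in saline (0.547).

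Ctss, for cathepsin S, known for cutting the invariant chain in antigen-presenting cells, had 1729 CPM in Ter119 and 2804 CPM in saline (0.617). Ctsc, whose product dipeptidyl peptidase 1 activates granule serine proteases, had 1522 CPM in Ter119 and 2017 CPM in saline (0.754). Ctsa, for the protective protein of beta-galactosidase and neuraminidase, had 560 CPM in Ter119 and 626 CPM in saline (0.895). So Ctsd, Ctsb and Ctsz were higher in Ter119, and Lgmn, Ctsh, Ctss and Ctsc lower, under all alternatives run. Ctsa was lower under CPM and higher under TMM and median-of-ratios scaling.

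Among the lipid and sugar hydrolases, Psap, for the precursor of the saposins that help enzymes reach sphingolipids, had 7955 CPM in Ter119 and 3597 CPM in saline (2.21, 2.20 to 2.22). It lies at chr10:60277627-60302597 on the plus strand. Lipa, for lysosomal acid lipase, which frees cholesterol and fatty acids from lipoprotein esters, had 1287 CPM in Ter119 and 705 CPM in saline (1.83, 1.80 to 1.85), the nearest below the 2-fold rule on the high side. Asah1, for acid ceramidase, had 311 CPM in Ter119 and 507 CPM in saline (0.614).

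The sugar hydrolases differed less. Hexa, for the alpha subunit of beta-hexosaminidase, had 460 CPM in Ter119 and 512 CPM in saline (0.898), and Glb1, for beta-galactosidase, had 61.5 CPM in Ter119 and 62.1 CPM in saline (0.991, 0.933 to 1.05). Another gene, Tmppe, overlaps Glb1 on the same strand.

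The 6 membrane and cholesterol genes held no call. Lamp2, for one of the 2 abundant glycoproteins of the lysosomal membrane, had 384 CPM in Ter119 and 666 CPM in saline (0.577, 0.564 to 0.591), whereas Lamp1, for the other, had 1488 CPM in Ter119 and 1558 CPM in saline (0.955). Cd68, for a macrophage glycoprotein of the same family, had 573 CPM in Ter119 and 464 CPM in saline (1.24). The pair that moves cholesterol out of lysosomes had 126 CPM of Npc1 in Ter119 and 96.7 CPM in saline (1.31), and 1152 CPM of Npc2 in Ter119 and 1156 CPM in saline (0.997, 0.983 to 1.01). Mcoln1, for the calcium channel mucolipin 1, was below the level limit, at 17.9 CPM in Ter119 and 18.2 CPM in saline.

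Of the remaining pair outside the pump, Tfeb had 27.2 CPM in Ter119 and 27.8 CPM in saline (0.978, 0.892 to 1.07). Its interval held 1 under CPM, but not under TMM or median-of-ratios scaling. Over the alternatives run, its log2 ratio ranged from -0.07 to 0.22. Grn, for progranulin, a secreted growth factor that is cut into granulins in lysosomes, had 1531 CPM in Ter119 and 2352 CPM in saline (0.651, 0.643 to 0.658).

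TFEB and its relatives bind the letters CACGTG, best known with a T before or an A after them. Windows from 250 bases before to 50 after the start (RefSeq, GRCm38.p6) were at hand for 29 of the 38 genes. CACGTG, which reads the same on both strands, was in the windows of 11 of the 29 (37.9%), against 8.09% of 27025 genes. Those 27025 were all genes with a window, matched neither for expression in these cells nor for base content. The longer TCACGTG, sought on both strands, was in 10 of the 29 (34.5%, against 4.29% of genes), TCACGTGA in 6 (20.7%, against 1.12%), GTCACGTG in 8 (27.6%, against 2.55%) and GTCACGTGAC in 0 (against 0.370%). These strings contain one another and so are not separate counts. Among the compared genes with a window, the median log2 ratio in Kupffer-gated cells was 0.00 for the 10 with CACGTG and 0.21 for the 17 without it, and Ctsd was the called gene with it. The stretches below are shown because they lie upstream of the annotated gene and belong to a called gene, a gene with many copies, a hydrolase and a pump subunit, with the motif in capitals, 5′ to 3′ along each gene's strand.
Ctsd, chr7:142388050-142388077, minus strand: tccccCACGTGacctgtatccagtcatt
Lamp1, chr8:13159083-13159160, plus strand: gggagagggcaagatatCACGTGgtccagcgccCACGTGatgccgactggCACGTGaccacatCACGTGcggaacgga
Glb1, chr9:114401013-114401052, plus strand: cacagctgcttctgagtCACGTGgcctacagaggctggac
Atp6v0b, chr4:117887334-117887382, minus strand: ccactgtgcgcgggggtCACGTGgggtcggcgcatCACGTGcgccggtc
The 4 copies before Lamp1 start between 61 and 15 bases upstream. A match in letters is not evidence of binding.

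In the V-ATPase, 12 of the 16 subunit genes had ratios and counting intervals above 1, among them Atp6v0c, which was below the level limit. Such intervals were found for 27.5% of all 6435 genes compared. Under TMM, Atp6v0b, Atp6v1b2 and Atp6ap1 also had ratios above 1, and 43.9% of all genes had intervals above 1. The median log2 ratio over the 15 pump genes compared was 0.34, with 2 called higher. Over the 21 other lysosomal genes compared it was -0.03, also with 2 called higher. The membrane sector held both calls in the pump.

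Atp6v0d2, for the d2 form of the V0 subunit that joins rotor and membrane ring, known from osteoclasts and some macrophages, had 44.4 CPM in Ter119 and 1.02 CPM in saline Kupffer-gated cells. These levels rest on 1038 UMIs in Ter119 and 69 UMIs in saline, for a ratio of 43.5 (34.1 to 56.3), the 20th highest of the 6435. The gene lies at chr4:19876841-19922605 on the minus strand. At 1000 UMIs per cell, 3.88% of Ter119 and 0.0839% of saline cells held a UMI of it, and unthinned 11.6% of Ter119 and 0.719% of saline cells. In thinned lymphoid-gated cells the shares were 2.24% in Ter119 and 0 of 92 cells in saline, on 6 UMIs in Ter119 and 0 UMIs in saline.

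Atp6v0a1, for the a1 form of the V0 subunit that holds the proton channels, had 108 CPM in Ter119 and 35.4 CPM in saline (3.04, 2.88 to 3.22), at chr11:101009452-101063719 on the plus strand. At 1000 UMIs per cell, 10.3% of Ter119 and 3.70% of saline cells held a UMI of it, and unthinned 30% of Ter119 and 23.0% of saline cells. In thinned lymphoid-gated cells the shares were 4.48% in Ter119 and 3.26% (0.678 to 9.23) in saline, the latter on 3 cells. Saline lymphoid-gated cells had 31.1 CPM of this gene and saline endothelial-gated cells had 80.3 CPM. How much of the saline Kupffer share is background was not tested. In the same sector, Atp6v0d1, for the widespread d1 form, had 157 CPM in Ter119 and 125 CPM in saline (log2 ratio 0.33). Atp6v0e had 504 CPM in Ter119 and 351 CPM in saline (1.43), and Atp6v0b, for a rotor ring subunit, had 439 CPM in Ter119 and 472 CPM in saline (0.929). Atp6v0c, for the main ring subunit, was below the level limit, at 4.11 CPM in Ter119 and 2.90 CPM in saline, and GENCODE vM21 lists 2 processed copies of it. Whether these took reads was not tested.

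The 8 genes of the V1 sector lay between log2 ratios of -0.36 and 0.77, with none called. The stator genes were the highest of them: Atp6v1g1 had 670 CPM in Ter119 and 392 CPM in saline (1.71, 1.67 to 1.74). Atp6v1e1 had 342 CPM in Ter119 and 218 CPM in saline (1.57), and Atp6v1c1, for the subunit that links the stator to the V0 sector, had 100.3 CPM in Ter119 and 70.0 CPM in saline (1.43).

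The catalytic core differed less. Atp6v1a, for the subunit that splits ATP, had 295 CPM in Ter119 and 258 CPM in saline (1.14), and its partner Atp6v1b2 had 289 CPM in Ter119 and 311 CPM in saline (0.929). Of the rotor shaft, Atp6v1d had 121 CPM in Ter119 and 96.0 CPM in saline (log2 ratio 0.34), and Atp6v1f had 462 CPM in Ter119 and 401 CPM in saline (1.15). Atp6v1h, for a regulatory subunit, was the lowest, at 52.1 CPM in Ter119 and 67.0 CPM in saline (0.778). Of the accessory proteins, Atp6ap2, also called the prorenin receptor, had 229 CPM in Ter119 and 158 CPM in saline (1.45), and Atp6ap1 had 259 CPM in Ter119 and 290 CPM in saline (0.893).

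Subunits d and a each exist in several forms, and the mixture differed between the mice. Of all UMIs of the d subunit, Atp6v0d2 held 22.1% (20.9 to 23.3) in Ter119 and 0.811% (0.632 to 1.03) in saline. Of all UMIs of the a subunit, Atp6v0a1 held 35.6% (34.5 to 36.8) in Ter119 and 15.9% (15.3 to 16.5) in saline. Tcirg1, for the a3 form of osteoclasts and macrophages, was the largest in both, with 51.5% in Ter119 and 65.3% in saline. Its own level was 155 CPM in Ter119 and 145 CPM in saline, and Atp6v0a2 had 38.9 CPM in Ter119 and 41.9 CPM in saline. The kidney form Atp6v0a4 had 0 of 7058 UMIs in Ter119 and 0 of 15032 in saline.

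**Figure D2:**
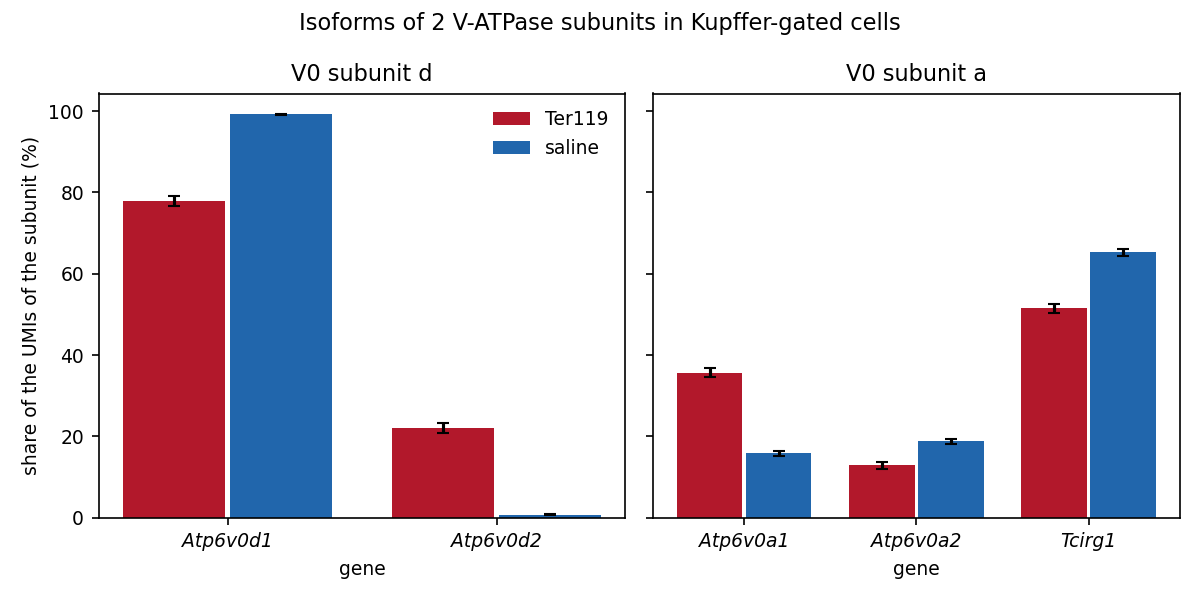
Bars give each gene's share of the UMIs of the V0 subunits d (left) and a (right) in Kupffer-gated cells, Ter119 in red and saline in blue, with 95% binomial intervals. Atp6v0d2 and Atp6v0a1 hold larger shares in Ter119, with 22.1% and 35.6%, than in saline, with 0.811% and 15.9%.

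Together the 38 genes took 4.15% of all UMIs of Kupffer-gated cells in Ter119 and 3.44% in saline, or 41489 CPM in Ter119 and 34397 CPM in saline. The 3 largest levels in Ter119 held 54.5% of these UMIs, and the 3 largest in saline held 40.6%. Without Ctsb, Ctsd and Psap, chosen here for their large differences, the sum was 18864 CPM in Ter119 and 22281 CPM in saline. That order depends on the scaling: the Ter119 sum was 22232 under TMM and 22516 under median-of-ratios scaling, beside the same saline sum. Per cell, the median share was 4.17% in Ter119 (10th to 90th percentile 2.80 to 5.36) and 3.47% in saline (2.64 to 4.23), so the cells of the 2 libraries overlapped.

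**Figure D3:**
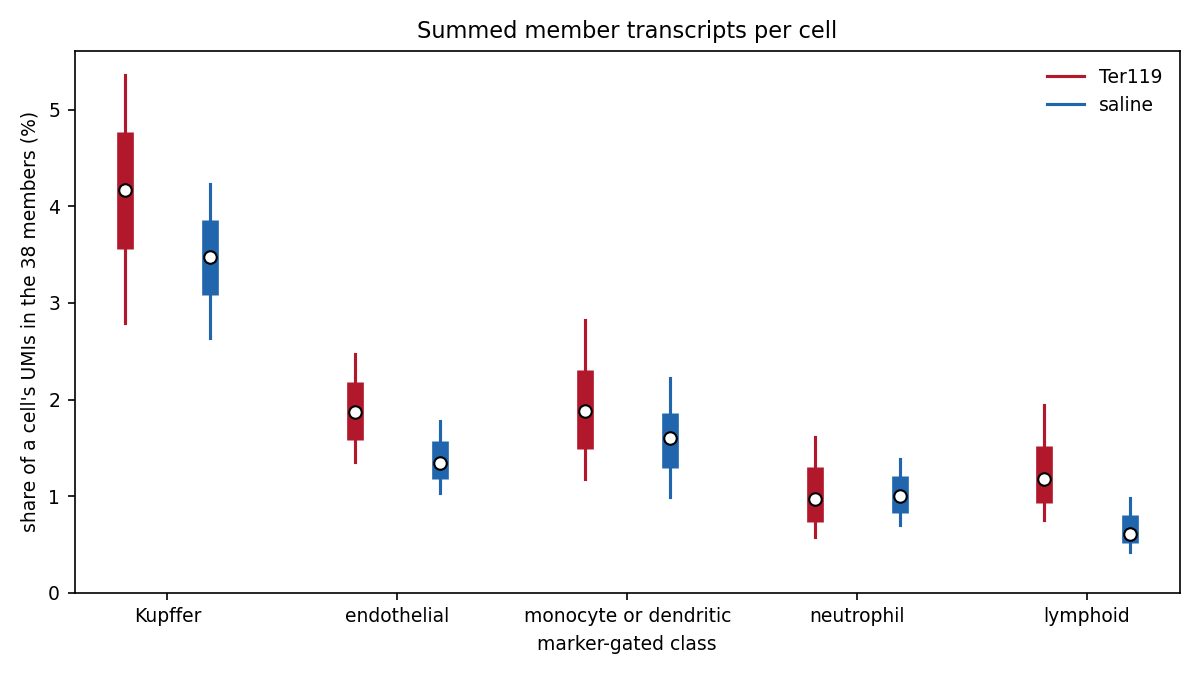
The share of a cell's UMIs in the 38 genes is drawn for 5 marker-gated classes, Ter119 in red left of saline in blue; circles are medians, thick bars the 25th to 75th percentile and thin lines the 10th to 90th percentile. Kupffer-gated cells are highest in both libraries, with medians of 4.17% in Ter119 and 3.47% in saline.

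Inside the Kupffer gate, cells were split into 3 equal groups, low, middle and high, by their Kupffer marker score. From the low to the high group, the summed level of the 38 genes was 38165, 41994 and 44147 CPM in Ter119 and 31772, 34870 and 35882 CPM in saline. Atp6v0d2 ran the other way in Ter119, with 59.5, 45.4 and 28.9 CPM, and had 1.39, 0.818 and 0.935 CPM in saline. Atp6v0a1 stayed between 105 and 113 CPM in the Ter119 groups and between 32.0 and 37.4 CPM in the saline ones. Ctsd had 4162, 4469 and 4643 CPM in Ter119 and 1618, 1808 and 1851 CPM in saline, so every Ter119 group lay above every saline group. Median depth per cell also varied, at 3129, 3810 and 3630 UMIs in the Ter119 groups and 5752, 7783 and 9208 in the saline ones, and its part in these differences was not tested.

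Other gates held fewer cells: 1068 Ter119 and 584 saline endothelial, 891 Ter119 and 325 saline monocyte or dendritic, 279 Ter119 and 109 saline neutrophil, and 134 Ter119 and 92 saline lymphoid. The highest level lay in the Kupffer gate for 32 of the 38 genes in Ter119 and for 25 in saline. The matching share of all genes was not worked out. Some leads were narrow. In Ter119, Ctss had 1729 CPM in the Kupffer gate and 1715 CPM in monocytes or dendritic cells. In saline, Atp6v0d1 had 124.84 CPM in the Kupffer gate and 124.80 CPM in neutrophils. Endothelial cells held the highest level of Ctsl in both mice, with 2111 CPM in Ter119 and 1854 CPM in saline. The same held for Lamp2, with 1004 CPM in Ter119 and 1391 CPM in saline endothelial cells, and for Mcoln1, Atp6v1d and Atp6v1h. Kupffer marker RNA was present in every other gate and differed between the mice. It stood at 21.9% of the Kupffer gate's level in Ter119 and 10.4% in saline endothelial cells, and at 17.6% in Ter119 and 7.68% in saline monocytes or dendritic cells. It was 18.2% in Ter119 and 14.4% in saline neutrophils, and 22.1% in Ter119 and 8.34% in saline lymphoid cells. The Kupffer gate's own marker level was lower in Ter119, so the levels themselves lay closer together. They were 5205 CPM in Ter119 and 3680 CPM in saline endothelial cells, and 4193 and 2731 CPM in monocytes or dendritic cells. In lymphoid cells they were 5246 CPM in Ter119 and 2964 CPM in saline. In neutrophils the order was reversed, with 4319 CPM in Ter119 and 5109 CPM in saline. The part of Kupffer marker RNA in the differences that follow was not tested.

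**Figure D4:**
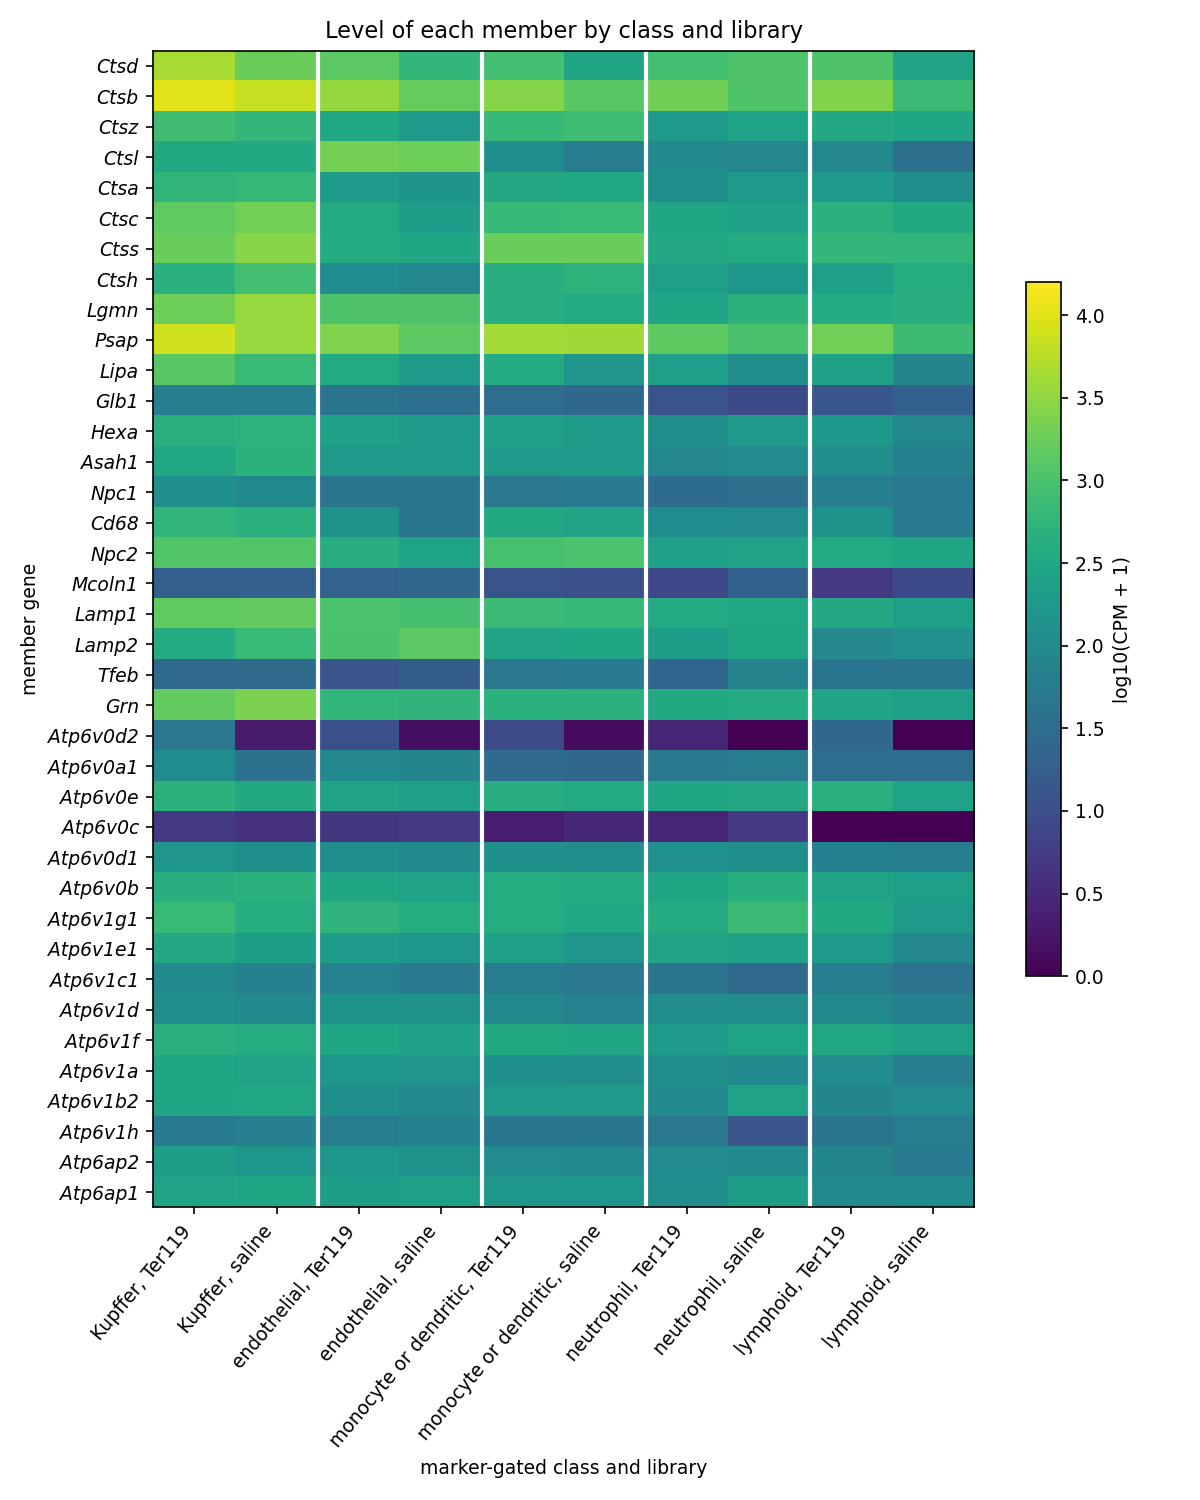
Colour gives log10(CPM + 1) of each of the 38 genes (rows, by role) in 5 marker-gated classes, with the Ter119 column left of the saline column in each pair. Most rows are brightest in the Kupffer columns. Ctsl and Lamp2 are among those brightest in the endothelial ones, Lamp2 with 1004 CPM in Ter119 and 1391 CPM in saline.

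In endothelial-gated cells 3 of 35 compared genes were called higher in Ter119 and 0 lower, against 2.89% higher and 3.94% lower among all genes. Ctsb had 3438 CPM in Ter119 and 1597 CPM in saline (2.15, 2.06 to 2.25), Ctsd had 1398 CPM in Ter119 and 603 CPM in saline (2.32), and Cd68 had 142 CPM in Ter119 and 42.8 CPM in saline (3.32, 2.60 to 4.25). In monocytes or dendritic cells 4 of 35 were higher and 0 lower, against 1.84% and 2.01% of all genes. These were Ctsd (881 CPM in Ter119, 288 CPM in saline, 3.06), Lipa (378 CPM in Ter119, 156 CPM in saline, 2.42), Ctsl (125 CPM in Ter119, 58.4 CPM in saline, 2.14) and Ctsb (2704 CPM in Ter119, 1341 CPM in saline, 2.02). Psap, called in the Kupffer gate, was called in neither of these gates. Its ratio was 1.81 (1.72 to 1.90) in endothelial-gated cells and 1.05 (1.02 to 1.08) in monocytes or dendritic cells.

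In lymphoid-gated cells 8 of 35 were higher and 0 lower, against 13.4% and 13% of all genes in this small gate. Its make-up differed, with 93 T or NK and 41 B or plasma cells in Ter119, and 20 T or NK and 72 B or plasma cells in saline, and the part of this in the ratios was not tested. Ctsd had 1118 CPM in Ter119 and 287 CPM in saline (3.89, 3.18 to 4.78), and Ctsb had 2554 CPM in Ter119 and 724 CPM in saline (3.53, 3.10 to 4.02). The others were Lipa, Cd68, Psap, Ctsl and Atp6v1e1, at ratios of 2.03 to 3.12, and Atp6v0d2. On 6 UMIs in Ter119 and 0 in saline, Atp6v0d2 had a ratio of 4.16 with 3 counts in place of the 0. The lower limit of its interval was 2.45. As a share of its own Kupffer level, Ctsb in this gate stood at 24.9% in Ter119 and 10.7% in saline, beside 22.1% in Ter119 and 8.34% in saline for Kupffer marker RNA. Ctsl, Cd68 and Lipa lay between 19.7% and 25.8% in Ter119 and between 9.84% and 11.6% in saline. Ctsl had a higher level in endothelial-gated than in Kupffer-gated cells in both mice, as given above. Ctsd stood at 25.2% in Ter119 and 16.2% in saline, and Psap at 25.2% in Ter119 and 20.9% in saline. Atp6v1e1 stood at 53.1% in Ter119 and 41.0% in saline, and Atp6v0d2 at 54.5% in Ter119 and 0% in saline.

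Neutrophil-gated cells showed no common direction. Their stage differed: the granule genes Ltf, Ngp, Camp and Mmp8 of immature neutrophils summed to 72036 CPM in Ter119 and 1513 CPM in saline, and Cxcr2, Csf3r and Mmp9 of mature ones to 1254 CPM in Ter119 and 6002 CPM in saline. The part of this in the ratios was not tested. Of 34 genes compared, 2 were higher and 2 lower, against 18.5% higher and 26.9% lower among all genes. Lipa had 233 CPM in Ter119 and 113 CPM in saline (2.06), on 126 UMIs in Ter119 and 29 UMIs in saline. Atp6v1b2 had 99.7 CPM in Ter119 and 261 CPM in saline (0.382, 0.262 to 0.554), and Tfeb had 22.2 CPM in Ter119 and 74.1 CPM in saline, on 12 UMIs in Ter119 and 19 UMIs in saline. Atp6v1h was higher on 25 UMIs in Ter119 and 3 in saline (3.95, 1.20 to 20.4). Erythroid-gated barcodes, 1307 in Ter119 and 0 in saline, could not be compared.

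**Figure D5:**
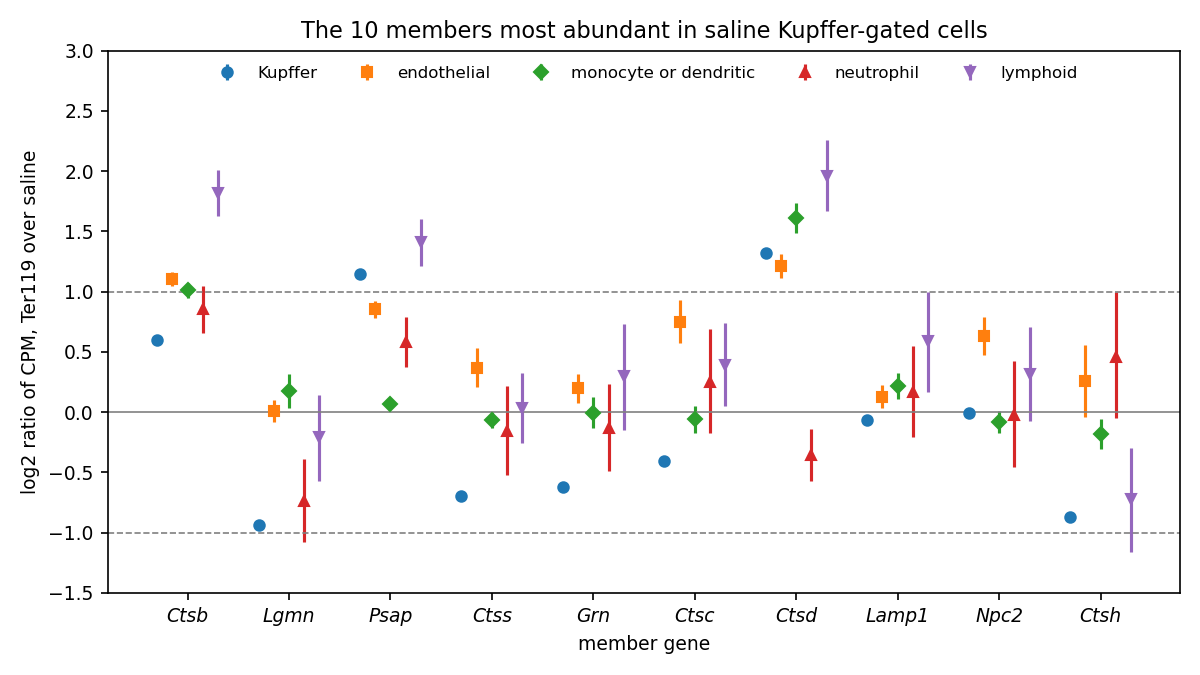
The log2 ratio of CPM, Ter119 over saline, is shown for the 10 lysosomal genes most abundant in saline Kupffer-gated cells, with 1 symbol per marker-gated class, 95% counting intervals and dashed lines at 2-fold. Ctsd lies above 1 in 4 classes and at -0.36 in neutrophils, and Lgmn lies at -0.93 in the Kupffer gate.

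Related genes of the lysosome were read from lists in the same Kupffer-gated cells, against the backgrounds of 3.79% higher and 8.67% lower. Of 30 further lysosomal enzymes, 28 were compared, 1 was higher, 0 were lower and the median log2 ratio was -0.13. Gla, for alpha-galactosidase A, had 51.5 CPM in Ter119 and 10.4 CPM in saline (4.93, 4.49 to 5.42). Below the rule, Ids, for iduronate sulfatase, had 33.8 CPM in Ter119 and 66.0 CPM in saline (0.512), and Sgsh, for sulfamidase, had 20.3 CPM in Ter119 and 37.6 CPM in saline (0.541).

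Of 6 other cathepsins, 2 were compared and 1 was called: Ctsf, for cathepsin F, was lower, with 16.9 CPM in Ter119 and 72.8 CPM in saline (0.232, 0.208 to 0.257). Ctso had 43.9 CPM in Ter119 and 75.4 CPM in saline (0.582). Of 8 cysteine cathepsin inhibitors, 3 were compared, with 1 higher, 0 lower and a median of 0.49. Cstb, for cystatin B, the inhibitor in the cytosol, had 872 CPM in Ter119 and 302 CPM in saline (2.89, 2.84 to 2.95). Cst3, for the secreted cystatin C, had 1096 CPM in Ter119 and 1569 CPM in saline (0.698), and Serpinb6a had 791 CPM in Ter119 and 563 CPM in saline (1.41).

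Of 18 other lysosomal membrane proteins, 17 were compared, with 2 higher, 0 lower and a median of -0.16. Cd63, a tetraspanin of late endosomes, had 647 CPM in Ter119 and 8.52 CPM in saline (75.9, 69.8 to 82.6). Slc48a1, which moves heme out of lysosomes, had 428 CPM in Ter119 and 162 CPM in saline (2.64, 2.57 to 2.71). Scarb2, the receptor that carries glucocerebrosidase to lysosomes, had 230 CPM in Ter119 and 381 CPM in saline (0.603).

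Of 11 genes for sorting to the lysosome, all were compared, with 2 higher, 0 lower and a median of 0.03. Sort1, for the sorting receptor sortilin, had 77.8 CPM in Ter119 and 1.30 CPM in saline (59.7, 48.2 to 74.9). Igf2r, for the large mannose 6-phosphate receptor, had 66.9 CPM in Ter119 and 30.2 CPM in saline (2.22, 2.07 to 2.37). Vps11 had 23.3 CPM in Ter119 and 31.0 CPM in saline (0.750), and Gnptg had 24.3 CPM in Ter119 and 30.6 CPM in saline (0.793).

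Of 17 genes of the TFEB family and lysosomal nutrient sensing, 14 were compared, with 1 higher, 0 lower and a median of 0.12. Rragd, for the GTPase RagD, had 20.8 CPM in Ter119 and 1.48 CPM in saline (14.0, 11.3 to 17.6). Tfe3, a relative of Tfeb, had 65.8 CPM in Ter119 and 118 CPM in saline (0.557, 0.527 to 0.588). Lamtor5 had 141 CPM in Ter119 and 98.8 CPM in saline (1.43), and Lamtor4 had 188 CPM in Ter119 and 137 CPM in saline (1.37).

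Of 16 autophagy genes, 15 were compared and none was called in either direction (median -0.02). Map1lc3a had 33.9 CPM in Ter119 and 65.8 CPM in saline (0.516), and Sqstm1, for the cargo receptor p62, had 333 CPM in Ter119 and 179 CPM in saline (1.86). Gabarapl1 had 95.9 CPM in Ter119 and 52.6 CPM in saline (1.82), and Uvrag had 56.2 CPM in Ter119 and 96.9 CPM in saline (0.581). Of 9 other V-ATPase subunits, 2 were compared and none was called, with Tcirg1 at 1.07 and Atp6v0a2 at 0.929.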

How the data were processed

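Single-cell RNA was measured in 2 samples, 1 per group. The authors deposited raw UMI counts per gene and barcode. The file headers name Cell Ranger 6.0.2, and the submitters' processing notes name Cell Ranger 4.0.0 and the build GRCm38.p6. The hashtag step that separated the mice was not analysed here.

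Barcodes needed a minimum of 1000 UMIs and 500 genes, and mitochondrial UMIs of 15% or less. A class was the one with the highest share of marker UMIs relative to the median of the 50 barcodes with the highest share, at a score of at least 0.15, with at least 3 marker UMIs and a 2-fold lead. This gate replaced an earlier version, dropped after its class sizes and marker scores, but no lysosomal gene, had been seen. Of Kupffer-gated cells, 10.5% in Ter119 and 11.8% in saline lay within 1.25-fold of a limit. No doublet caller was used. Counts were summed per class and expressed as CPM. 3' UMI counts were not divided by gene length. Ratios against 0 used 3 counts in its place, and the comparison was checked on simulated counts. PCR and cell-to-cell variation are outside the intervals.

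The 38 genes, related lists, markers and rules were chosen with earlier results of these data known. Values are printed for every lysosomal gene and, of each list, for the up to 4 compared genes with the largest absolute log2 ratio, of which some are not reported here. The 5 promoter strings, the split of Kupffer-gated cells into 3 groups and 2 of the alternatives were chosen after values had been seen. Opposite directions between gates were first sought at 2-fold in each, which gave none, then at 1.5-fold, and are given below with no fold limit. Alternatives covered scaling (TMM of edgeR 4.0.16 under R 4.3.3, median of ratios), cell filters, gates, leiden clusters (scanpy 1.11.5) and level filters. The scripts ran under python 3.11.15 with scipy 1.17.1, numpy 2.4.6 and pandas 2.3.3. The gene sums by neutrophil stage and lymphoid type were chosen after the gates' leading genes had been seen.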

Additional observations from a re-analysis of the deposited data

Results flagged for a closer look

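For 13 of the 38 genes the Ter119 to saline ratio pointed in opposite directions in at least 2 gates, with counting intervals clear of 1 on both sides. They make up 36.1% of the 36 lysosomal genes compared in at least 2 gates, against 12.9% of 7258 genes, but abundant genes have narrower intervals and so meet this rule more easily. Under TMM and median-of-ratios scaling Ctsa, Ctsd, Hexa, Asah1, Lamp1 and Atp6v0b no longer met it, and Ctsh, Tfeb, Atp6v1b2 and Atp6ap1 did. The difference between gates was not tested for any of them, and Kupffer marker RNA in the other gates differed between the mice as given above. All values are log2 ratios, Ter119 over saline.

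Ctsa was at -0.16 in the Kupffer, 0.38 in the endothelial, -0.60 in the neutrophil and 0.61 in the lymphoid gate. Ctsc was at -0.41 in the Kupffer, 0.75 in the endothelial and 0.39 in the lymphoid gate. Ctsd was at 1.32 in the Kupffer, 1.21 in the endothelial, 1.61 in the monocyte or dendritic and 1.96 in the lymphoid gate, but at -0.36 in neutrophils. Ctss was at -0.70 in the Kupffer, 0.37 in the endothelial and -0.068 in the monocyte or dendritic gate. Ctsz was at 0.44 in the Kupffer, 0.80 in the endothelial, -0.27 in the monocyte or dendritic and -0.62 in the neutrophil gate. Lgmn was at -0.93 in the Kupffer, 0.18 in the monocyte or dendritic and -0.73 in the neutrophil gate.

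Hexa was at -0.15 in the Kupffer, 0.30 in the endothelial, 0.28 in the monocyte or dendritic, -0.58 in the neutrophil and 0.96 in the lymphoid gate. Asah1 was at -0.70 in the Kupffer and 0.78 in the lymphoid gate. Lamp1 was at -0.067 in the Kupffer, 0.13 in the endothelial, 0.22 in the monocyte or dendritic and 0.59 in the lymphoid gate. Grn was at -0.62 in the Kupffer and 0.20 in the endothelial gate.

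Of the pump, Atp6v0b was at -0.11 in the Kupffer, 0.24 in the endothelial and -0.50 in the neutrophil gate. Atp6v1g1 was at 0.77 in the Kupffer, 0.43 in the endothelial, 0.31 in the monocyte or dendritic and 0.98 in the lymphoid gate, but at -0.94 in neutrophils. Atp6v1h was at -0.36 in the Kupffer gate and at 1.98 in neutrophils, there on 25 UMIs in Ter119 and 3 in saline.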

How the results depend on the processing

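Of 17 alternatives, 15 were planned, and the limit of 1% hemoglobin UMIs and the band of 3000 to 6000 UMIs per cell were chosen after seeing the data. The 4 genes called in the Kupffer gate stayed at least 2-fold higher in ratio under all 17, 27 of the 38 genes kept their sign and 35 their side of 2-fold. The number called higher ran from 3, where a limit of 50 CPM removed Atp6v0d2, to 6, where TMM and median-of-ratios scaling added Lipa and Atp6v1g1. These 2 scalings moved the median log2 ratio of all genes compared from -0.22 to 0.02 and 0.04, so changes are best read against that shift. Under them, and with CPM taken without hemoglobin, ferritin and mitochondrial genes, the median of the lysosomal genes became 0.34, 0.36 and 0.18, that of the V-ATPase genes 0.57, 0.59 and 0.41, and that of the other genes 0.20, 0.22 and 0.047 in place of -0.03. The last turned positive also with no mitochondrial limit. With no filter on low genes the V-ATPase median was 0.42, the cause being the added gene Atp6v0c. The number called lower became 1, Lgmn, with leiden clusters (log2 ratio -1.01) and in the band of 3000 to 6000 UMIs (-1.20). The median in neutrophils changed sign under TMM (0.10), median-of-ratios (0.03) and a 4-fold lead (0.17), and that in monocytes or dendritic cells in the band of UMIs (-0.02). Leiden clusters gave no neutrophil value. No paired analysis was possible because each group had 1 mouse. In the neutrophil and lymphoid gates, with 109 to 279 and 92 to 134 cells per library, single genes rest on few UMIs.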
